A study of Mus musculus with 3 samples.

Results

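The 10 transcription factors described here build the endocrine cells of the pancreas: Neurog3, Insm1, Neurod1, Nkx2-2, Isl1, Myt1, St18, Rfx6, Pax4 and Pax6. Their probes were taken by gene symbol from the platform annotation, which gave 11 probes among the 25697 on the arrays and 10 genes among 16593. Nkx2-2 had 2 probes and the other 9 genes had 1 each. The study comprised 3 arrays of a single group, replicates 1 to 3 of cells that the sample titles call induced delta, at day 10 by the series title. The hosts were Rag1-/- mice, a strain without mature lymphocytes of the T and B lineages, whose dorsal pancreas had received adenovirus by direct injection at its splenic lobe. The labels do not name the gene that the virus carried; in published work on cells of this kind it was, to present knowledge, Neurog3. Islets were removed before Cherry+ cells were sorted from the digested acinar fraction, and the extraction protocol calls these induced beta cells, against the titles. All arrays carry both the Rag1-/- genotype and the virus, and no other group was analysed, so every value below is a level and none is a change.

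Neurog3 is the basic helix-loop-helix (bHLH) factor with which endocrine development starts in the pancreas; in the embryo its expression is brief. It switches on a second layer of factors, among them Insm1, Neurod1, Nkx2-2, Rfx6, Pax4 and Myt1. Some of these maintain the endocrine state after Neurog3 itself has gone. Isl1 and Pax6 act later, in hormone-expressing cells of all islet types. Factors of the bHLH class bind a short DNA element called the E box, with the letters CANNTG.

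Promoters of 7 of the 10 genes were held in the RefSeq table (build GRCm38.p6), as 10 windows, since Myt1 had 3 annotated starts and Pax6 had 2. Of these windows, cut to the 250 bases before each start, 7 of 10 held CANNTG on either strand, as did 66.2% of all 32851 windows of the same length. The 4 promoters below are shown because Neurog3 and Neurod1 are the bHLH members, Nkx2-2 held the most E boxes (3) and Isl1 held the same E box letters, CAGCTG, as Neurog3. Each runs from 5′ to 3′ on the strand of its gene, with E boxes in capitals. Neurog3 lies at chr10:62132840-62133089 on the plus strand, and its E box began 165 bases before the start. Neurod1 lies at chr2:79456637-79456886, Nkx2-2 at chr2:147186403-147186652 and Isl1 at chr13:116309689-116309938, all on the minus strand.
Neurog3: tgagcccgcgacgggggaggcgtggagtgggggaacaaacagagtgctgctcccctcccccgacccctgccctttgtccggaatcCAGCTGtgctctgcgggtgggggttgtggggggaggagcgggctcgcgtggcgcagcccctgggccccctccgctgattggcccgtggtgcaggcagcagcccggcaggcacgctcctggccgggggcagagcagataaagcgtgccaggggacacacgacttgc
Neurod1: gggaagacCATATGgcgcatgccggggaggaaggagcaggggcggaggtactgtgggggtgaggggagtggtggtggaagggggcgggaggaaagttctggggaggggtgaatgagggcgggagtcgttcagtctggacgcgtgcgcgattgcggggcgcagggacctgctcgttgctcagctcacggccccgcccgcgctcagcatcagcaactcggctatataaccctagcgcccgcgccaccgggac
Nkx2-2: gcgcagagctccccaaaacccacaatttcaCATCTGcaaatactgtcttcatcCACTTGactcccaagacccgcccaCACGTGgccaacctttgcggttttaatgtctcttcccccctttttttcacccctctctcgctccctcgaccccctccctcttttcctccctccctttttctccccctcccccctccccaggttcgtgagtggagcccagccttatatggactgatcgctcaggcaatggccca
Isl1: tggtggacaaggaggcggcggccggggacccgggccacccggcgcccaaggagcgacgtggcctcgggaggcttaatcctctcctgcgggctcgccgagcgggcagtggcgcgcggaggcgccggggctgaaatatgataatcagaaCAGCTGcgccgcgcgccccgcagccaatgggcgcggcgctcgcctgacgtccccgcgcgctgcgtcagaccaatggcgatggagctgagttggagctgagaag
The E box of Neurod1 began 242 bases before the start and that of Isl1 103 bases before it. Those of Nkx2-2 began 220, 197 and 173 bases before the start, and the first of them reads CATCTG, which is CAGATG on the other strand, a form found in 14.4% of all windows. The form CAGCTG was found in 13.0% of all windows, and TNAAGTG, a core that Nkx2 proteins bind, in the Nkx2-2 window alone of these 10 and in 10.1% of all. It overlaps the second E box of Nkx2-2. The Rfx6 window held no E box. These matches describe the letters in the windows; binding was not measured.

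Of the 10 factors, 7 were detected on all 3 arrays (70.0%), where the same call was made for 40.9% of all 16593 genes. The factors were chosen with earlier results of these data known, so these shares are a description and not a test. A probe was called detected where its deposited detection p was under 0.05 on every array, and a gene was called so through any 1 of its probes; that p is the share of the array's negative control beads at least as bright as the probe. Insm1, Isl1, Myt1, Nkx2-2, St18, Rfx6 and Neurod1 passed, and Neurog3, Pax4 and Pax6 did not pass on any array. By probe this was 7 of 11 (63.6%), against 33.4% of all named probes. A second test used the spread between arrays. It asked with limma whether the mean log2 level lay above the background limit, the highest level among undetected probes of each array, which was 4.83, 4.77 and 4.75 on replicates 1, 2 and 3. The same 7 probes passed it at an adjusted p under 0.05, as did 32.1% of all probes. A probe detected on every array lies above this limit by construction, so the limma test adds only the size of the difference against the spread. The median level of the 10 factors was 6.97; that over all genes, 4.64, lay below the background limit and is a floor, and neither ranks one gene against another. A bulk array cannot tell fewer cells of a type apart from less RNA per cell.

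**Figure D1:**
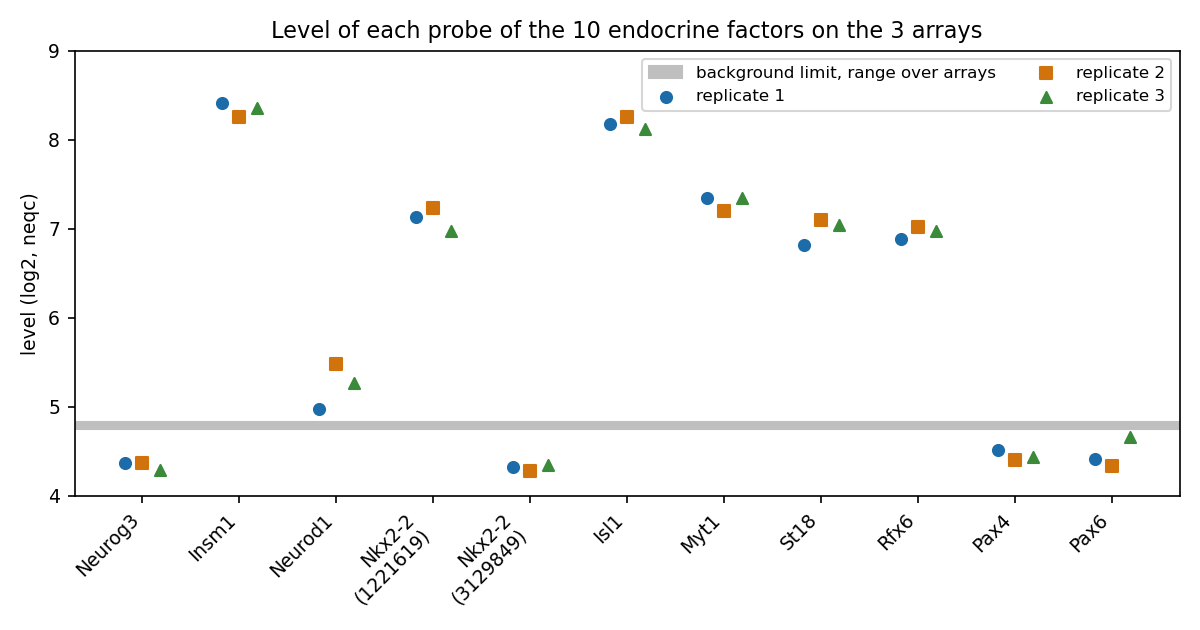
Level (log2, background-corrected and quantile normalized) of each of the 11 probes on the arrays of replicates 1, 2 and 3, with the background limit (4.75 to 4.83) as a grey band. Probes of 7 factors lie above the band on every array, Neurod1 closest to it, and those of Neurog3, Pax4, Pax6 and the second Nkx2-2 probe lie below it; levels of different probes cannot be ranked against each other.

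The starting factor was at background. The Neurog3 probe (ILMN_2600778) had deposited intensities of 60.9, 54.8 and 49.1 on replicates 1, 2 and 3, which were 1.01, 1.01 and 0.948 times the median negative control of each array. Its detection p was 0.452, 0.46 and 0.711, so that 361, 367 and 567 of 798 controls were at least as bright. On the log2 scale it read 4.37, 4.37 and 4.29 (mean 4.34 ± 0.0422, SD, n = 3), which was below the limit (difference -0.44, SE 0.0448, 95% interval -0.53 to -0.35; limma adjusted p = 1). All arrays gave the same picture. The probe is annotated to the Neurog3 transcript NM_009719; which part of it the probe covers, and whether a viral transcript would hold that part, was not tested.

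Insm1, a zinc finger factor that Neurog3 switches on and that endocrine precursors need to differentiate, was well above background on every array. Its intensities were 363.2, 349.7 and 380.9, or 6.02, 6.45 and 7.35 times the median control, and no control of 798 was as bright. The log2 level was 8.41, 8.25 and 8.36 (8.34 ± 0.0793, SD, n = 3), 3.56 above the limit (SE 0.0537; limma adjusted p = 1.63e-31). The arrays lay within a range of 0.154.

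Neurod1, the bHLH factor that follows Neurog3 and keeps hormone genes active, was the member closest to the limit among those detected. Its intensities were 76.2, 83.7 and 76.3, or 1.26, 1.54 and 1.47 times the median control. On replicates 1, 2 and 3, 22, 0 and 2 of 798 controls were as bright, giving detection p-values of 0.0276, 0 and 0.00251. The log2 level was 4.97, 5.48 and 5.27 (5.24 ± 0.257, SD, n = 3), 0.46 above the limit (SE 0.0936, 95% interval 0.27 to 0.65; limma adjusted p = 6.47e-05). Replicate 1 was the lowest and stood 0.14 above its limit. The call was lost at a detection p under 0.01 and when the detection p was adjusted within each array, where 6 of 10 factors passed (60.0%), against 35.4% and 36.8% of all genes under these rules. Replicate 1 also had the fewest detected probes of all, 9145, against 9592 and 9713 on replicates 2 and 3; the part of this in the Neurod1 value was not tested.

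Nkx2-2, a homeobox factor needed for beta cell formation and for keeping ghrelin cells in check, gave opposite answers from its 2 probes. The probe annotated to the transcript NM_010919 (ILMN_1221619) had intensities of 178.1, 190.9 and 167.5, and its log2 level was 7.13, 7.23 and 6.98 (7.11 ± 0.124, SD, n = 3), 2.33 above the limit (SE 0.0639; limma adjusted p = 1.39e-24). The probe annotated to NM_001077632 (ILMN_3129849) had intensities of 58.7, 50.9 and 51.5, and read 4.32, 4.28 and 4.34 (4.32 ± 0.0293, SD, n = 3), with 488, 607 and 426 of 798 controls as bright. Both accessions belong to Nkx2-2 in the RefSeq table. The first probe was thus detected on every array and the second on none. Such a split was common on these arrays: of 1360 genes with 2 probes and at least 1 detected, 940 (69.1%) had the other undetected. Whether the transcripts or the probes differ was not tested.

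Isl1, a LIM homeobox factor of all islet endocrine cells, had intensities of 320.2, 349.2 and 326.2, or 5.3, 6.44 and 6.29 times the median control. The log2 level was 8.18, 8.25 and 8.12 (8.19 ± 0.0649, SD, n = 3), 3.4 above the limit (SE 0.0548; limma adjusted p = 9.12e-31). It had the smallest SD of the 7 detected member probes.

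The zinc finger genes Myt1 and St18, which belong to one family, were both detected. Myt1 forms a loop with Neurog3 in endocrine progenitors in which each raises the other. Its intensities were 201.5, 188.2 and 204.4, and its log2 level 7.35, 7.2 and 7.34 (7.3 ± 0.0845, SD, n = 3), 2.52 above the limit (SE 0.061; limma adjusted p = 5.06e-26). St18, also called Myt3, had intensities of 153.3, 178.9 and 172.8 and a log2 level of 6.82, 7.1 and 7.04 (6.99 ± 0.147, SD, n = 3), 2.21 above the limit (SE 0.0686; limma adjusted p = 3.9e-23). Myt1 was lowest on replicate 2 and St18 on replicate 1, so the pair did not share a low array.

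Rfx6, a winged helix factor that acts after Neurog3 and is needed for most islet cell types of the mouse, had intensities of 158.0, 169.8 and 166.9. Its log2 level was 6.89, 7.02 and 6.97 (6.96 ± 0.0664, SD, n = 3), 2.18 above the limit (SE 0.0646; limma adjusted p = 1.16e-23). No control of 798 was as bright on any array.

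Both paired box factors were below the limit. Pax4, which steers precursors towards beta and delta cells, had intensities of 65.8, 56.0 and 55.1, with detection p-values of 0.198, 0.37 and 0.267. Its log2 level was 4.51, 4.4 and 4.44 on replicates 1, 2 and 3 (4.45 ± 0.0548, SD, n = 3; limma adjusted p = 1). Pax6, a factor of alpha cells and of hormone gene activity in all islet cells, had intensities of 62.7, 53.3 and 61.2 and a log2 level of 4.41, 4.33 and 4.66 (4.47 ± 0.171, SD, n = 3; limma adjusted p = 1). Replicate 3 was the highest for Pax6, where 68 of 798 controls were as bright by the deposited detection p-value of 0.0852, and the level differed from the limit of that array by -0.09. Each gene had 1 probe, so the arrays hold no second reading of either.

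The SD over the 3 arrays ranged from 0.0649 for Isl1 to 0.257 for Neurod1 among the 7 detected probes, where the median over all 8486 detected probes was 0.0872. Probes of Isl1, Rfx6, Insm1 and Myt1 had an SD under that median, and those of Nkx2-2, St18 and Neurod1 over it. Neurod1 exceeded 96.8% of detected probes, and its SD of 0.257 compares with a median of 0.131 over the 1469 detected probes within 0.25 log2 units of its level. St18 (0.147) compares with 0.0844 over 821 such probes. No array was low for all: St18, Rfx6 and Neurod1 were lowest on replicate 1, Insm1 and Myt1 on replicate 2, and Isl1 and Nkx2-2 on replicate 3. With scaling to a common median in place of quantile normalization, 6 of the 7 were lowest on replicate 1; under that scaling the detected probes as a whole also shifted by 0.15 between arrays (median deviation -0.0899 on replicate 1 and 0.0596 on replicate 3). Separate animals are not stated for the 3 samples, so this spread, and the p-values that rest on it, may be technical.

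**Figure D2:**
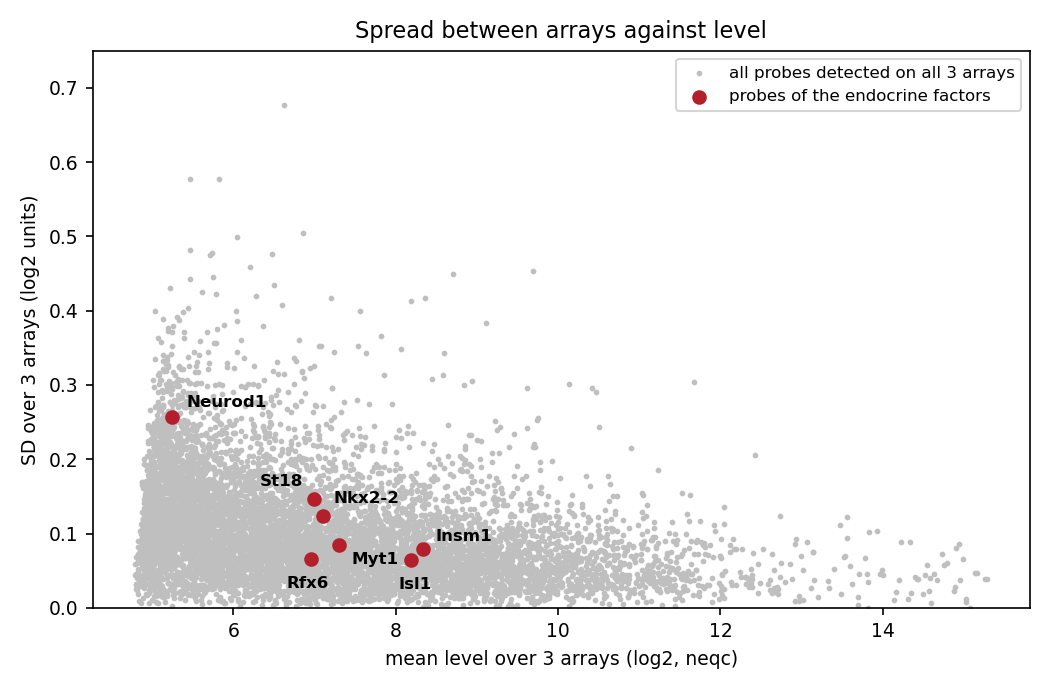
SD over the 3 arrays against mean level (both log2) for the 8486 probes detected on all arrays (grey) and the 7 detected probes of the endocrine factors (red). Neurod1 (SD 0.257) lies high among probes of its level, while Isl1, Rfx6, Insm1 and Myt1 lie under the overall median of 0.0872.

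Other genes of the same families were mostly at background. Of 41 measured relatives, 6 were detected (14.6%, against 40.9% of all genes), and their median level was 4.46. In the bHLH family 1 of 9 was detected, Neurod2, a neuronal relative of Neurod1 (5.45, 4.77 and 5.18; 5.13 ± 0.34, SD, n = 3; limma adjusted p = 0.00195). Neurog1 (4.68 ± 0.102) and Neurog2 (4.46 ± 0.159), which start neuron formation, were not. Of 6 other Nkx2 genes 1 was detected, Nkx2-3, by 1 of its 2 probes (5.12 ± 0.238, SD, n = 3). At a detection p under 0.01 neither Neurod2 nor Nkx2-3 passed, so both families then held 0 detected relatives. Insm2 (4.24 ± 0.0817), the relative of Insm1, was at background, and Myt1l (4.7 ± 0.126), the relative of Myt1 and St18, was above background on 1 array. All 7 other Pax genes were at background, among them Pax1 (4.36 ± 0.0217) and Pax2 (4.35 ± 0.0779).

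In the RFX family 2 of 6 relatives were detected (33.3%, against 40.9% of all genes). Rfx1 (8.65, 8.69 and 8.56, mean 8.63 ± 0.0685, SD, n = 3) passed by 1 of its 2 probes, and Rfx2 (6.77 ± 0.0333) passed by its only probe. Rfx3 (4.73 ± 0.0362), a factor of ciliated and endocrine cells, was above background on 1 array by its brightest probe. Of 11 LIM homeobox relatives 2 were detected (18.2%), Lhx5 (5.79 ± 0.0443) and Lmx1b (4.96 ± 0.1). Lmx1b did not pass the limma test (adjusted p = 0.0848) and was lost at a detection p under 0.01. Isl2, the closest relative of Isl1, was at background (4.44 ± 0.138). No test of a difference between families was made.

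**Figure D3:**
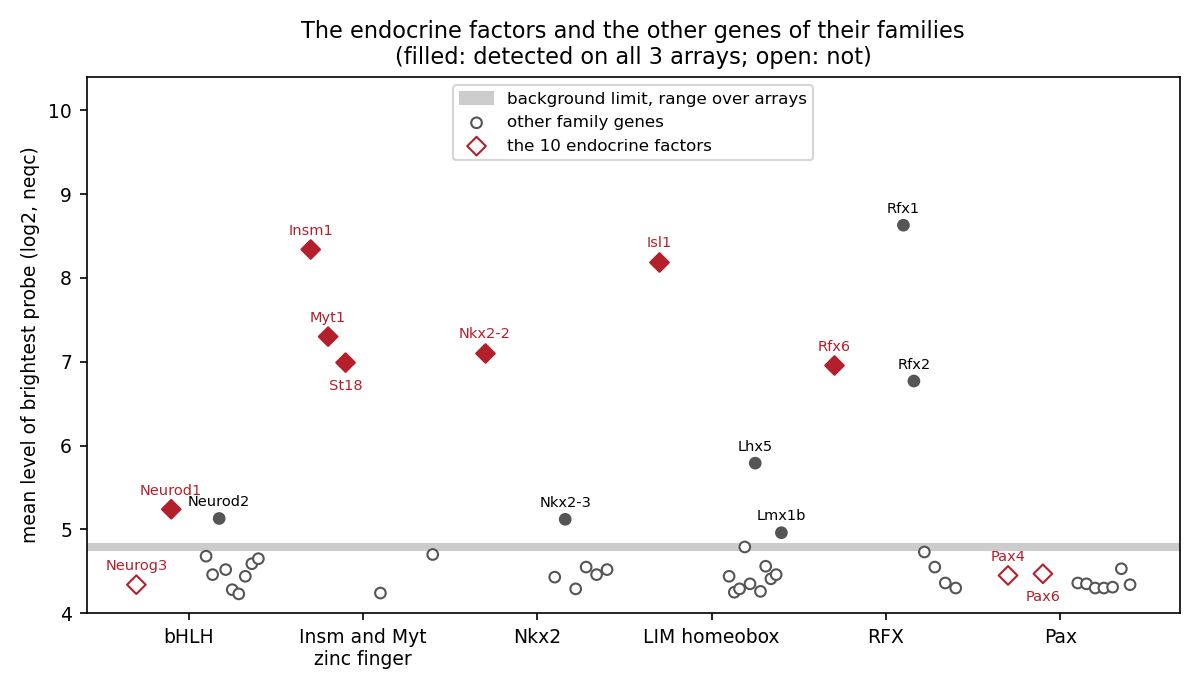
Mean level (log2) over 3 arrays of the brightest probe of each endocrine factor (red diamonds) and of each other measured gene of its family (grey circles), filled where detected on all arrays. Relatives lie at or under the background limit (grey band) but for Neurod2, Nkx2-3, Lhx5, Lmx1b, Rfx1 and Rfx2.

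Genes of proteins with which the factors work were detected broadly as RNA. Of 19 measured partners and co-regulators 14 were detected (73.7%, against 40.9% of all genes), with a median level of 7.04. Tcf4 (9.48 ± 0.0779) and Tcf12 (5.77 ± 0.12, by 1 of its 3 probes) encode E proteins, with which bHLH factors such as Neurog3 and Neurod1 pair. Ldb1 (10.76 ± 0.0544) encodes the adaptor that Isl1 binds. Tcf3 had no named probe. Ldb2 (4.44 ± 0.129), a relative of Ldb1, and Ssbp2 (4.62 ± 0.0969), from a family of Ldb1 partners, were at background. Many of these genes are used by most cell types.

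Genes that act before Neurog3 and genes that act against it were read next. Of 17 measured progenitor factors 10 were detected (58.8%, against 40.9% of all genes). Among them were Pdx1 (6.52 ± 0.134), Ptf1a (8.84 ± 0.033), which acinar cells also use, and Sox9 (5.73 ± 0.109). Onecut1, which raises Neurog3 in the embryo, was at background (4.51 ± 0.13), as was Foxa1 (4.46 ± 0.109). Of 12 Notch pathway and Id genes, which hold Neurog3 or its action down, 5 were detected and 7 were not, a share of 41.7% beside 40.9% of all genes. Hes1, the repressor of Neurog3, read 6.51, 6.49 and 6.64 (6.55 ± 0.0833, SD, n = 3) and its relative Hey1 6.01 ± 0.119, with Notch1 at 7.82 ± 0.182, while Hes5 (4.33 ± 0.0104) and Hey2 (4.35 ± 0.0446) were at background.

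Genes described as responding to Neurog3, the 10 factors aside, were detected for 10 of 19 (52.6%, against 40.9% of all genes). Hes6, a bHLH gene of endocrine precursors, read 8.26, 7.82 and 7.93 (8 ± 0.23, SD, n = 3) by 1 of its 3 probes. Neurl1a, of Notch ligand traffic, read 9.48 ± 0.0907. The co-repressor gene Cbfa2t3, detected by 2 of its 3 probes, read 6.26 ± 0.0527. Dll1, the Notch ligand that endocrine precursors display, was above background on 1 array (4.76 ± 0.069), as was Mfng, which encodes a modifier of Notch (4.62 ± 0.198). Of 16 measured later islet factors 8 were detected. Nkx6-1 (5.60, 5.08 and 5.49; 5.39 ± 0.275, SD, n = 3), of beta cells, and Hhex, of delta cells (8.28 ± 0.016), were detected, and Mafa (4.53 ± 0.0103), of beta cells, and Irx1 (4.37 ± 0.0311), of alpha cells, were not.

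Hormone, granule and excitability genes that the factors are known to regulate were detected for 14 of 22 (63.6%, against 40.9% of all genes). Sst, the somatostatin gene, which marks delta cells, read 13.81 ± 0.0461, Ins2 11.38 ± 0.039 and Gcg 9.21 ± 0.0789, while the granule gene Scg2 (4.37 ± 0.0708) and the prohormone convertase gene Pcsk1 (4.32 ± 0.0712), a known target of the cascade, were at background. The hormone genes Ghrl (9.18 ± 0.0663) and Ppy (6.08 ± 0.0421), of the other islet cell types, were detected too. So was the hormone gene Pyy (12.71 ± 0.0182). The arrays do not show which cells held which hormone.

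**Figure D4:**
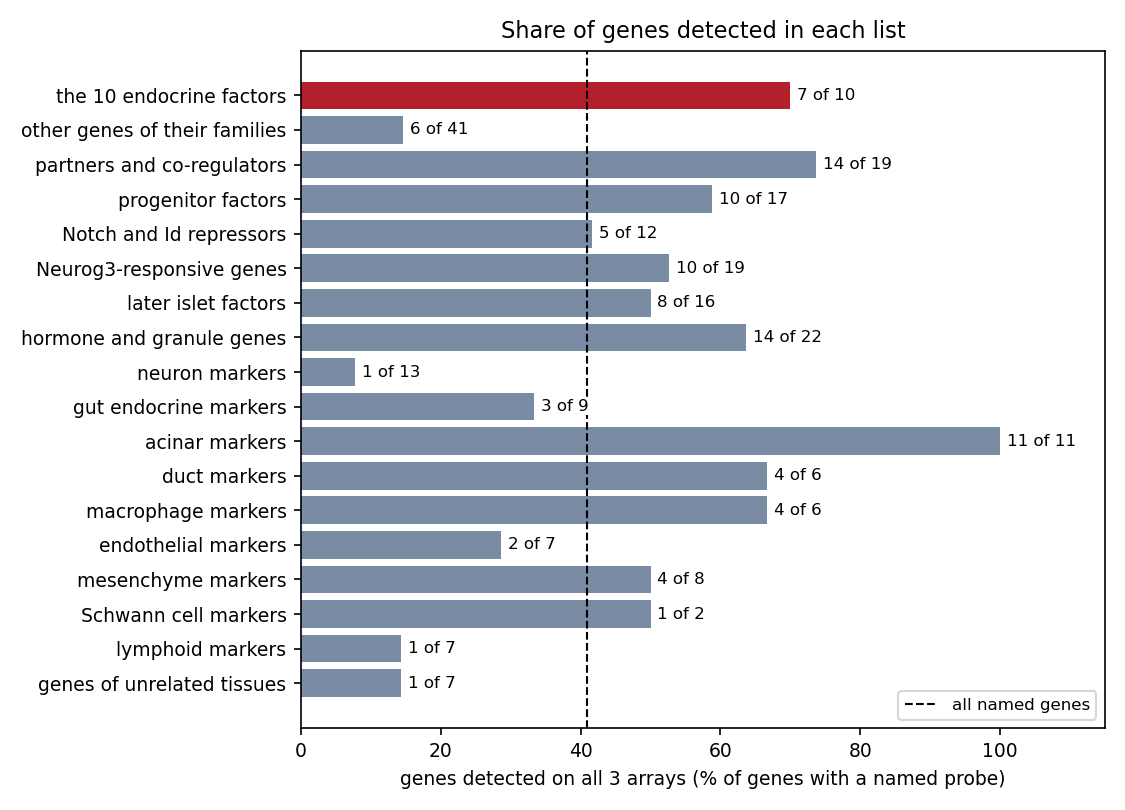
Share of genes detected on all 3 arrays (percent of genes with a named probe) in each gene list, with counts beside the bars and the share over all named genes (40.9%) as a dashed line. The 10 endocrine factors stand at 70.0%, their relatives at 14.6%, neuron markers at 7.69% and acinar markers at 100%. All lists were chosen with earlier results of these data known.

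Several of the factors are also used outside the islet, in neurons and in gut endocrine cells, so markers of these and of other cells the sort could hold were read on the same arrays. Of 13 neuron markers 1 was detected (7.69%, against 40.9% of all genes), Map2 (8.8 ± 0.121), by 1 of its 3 probes. Phox2a (4.59 ± 0.178) and Prph (4.29 ± 0.0242), of peripheral neurons, were at background, and 2 markers were detected where 2 of 3 arrays sufficed. Of 9 gut endocrine markers 3 were detected (33.3%, against 40.9% of all genes), the hormone genes Sct (5.82 ± 0.0719), Gip (5.35 ± 0.138) and Cck (7 ± 0.0269). Tph1 (4.31 ± 0.0575), which makes serotonin, and Lmx1a (4.46 ± 0.0807) were at background. All 11 acinar markers were detected, with a median level of 14.22, as were 4 of 6 duct, 4 of 6 macrophage, 4 of 8 mesenchyme, 2 of 7 endothelial, 1 of 2 Schwann cell, 1 of 7 lymphoid and 1 of 7 unrelated-tissue markers. Of 6 genes read for the delta cell label 5 were detected (Sst, Hhex, Ffar4, Rbp4 and Pdx1, not Ghsr), against 40.9% of all genes. The same RNA also held all acinar markers. Pdx1 stands among the progenitor factors above too, and Ins2 and the beta cell gene Nkx6-1 were also detected. Of further genes that beta cells use, Iapp and Abcc8 were detected, and Mafa, Slc2a2, G6pc2 and Slc30a8 were not. The count therefore does not decide between the names delta and beta. How much of each factor's signal came from which cells was not tested.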

How the data were processed

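Expression was read on Illumina MouseRef-8 v2.0 beadchips, 1 colour, from biotin-labelled total RNA, per the labels. Per the file headers, the authors deposited for each probe its average bead intensity and its detection p-value; the deposited intensity columns share a mean of 211.795, so they had been scaled before deposit. The minimum intensity lay at 36.0 to 41.8, so background had not been subtracted. A second deposited table holds processed intensity values with 1 common distribution. The scanner software was not stated. The detection p-value steps of the deposited table imply 798 negative controls per array.

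Intensities were background-corrected (normexp, offset 16, controls inferred from the detection p-values), quantile normalized and taken to log2 (neqc, limma 3.58.1, R 4.3.3). Where a gene had several probes, its brightest gave the level. Symbols came from the platform annotation (23978 of 25697 probes named) and matched RefSeq by Entrez identifier for 23962. The limma fit (lmFit, eBayes with a variance trend, one-sided, Benjamini-Hochberg over all 25697 probes) was tested on simulated data. All simulated probes shared the same SD, so the variance trend could not be checked this way. Promoters came from RefSeq (GRCm38.p6). Replicates follow the titles.

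The members and all gene lists were chosen with earlier results of these data known. Named were all member probes, the first 3 detected and first 2 undetected genes of each list in written order, and detected relatives. Of the undetected relatives under this rule, Nkx2-1, Nkx2-4, Lhx1 and Rfx4 are given only within the family counts. Tcf3, Ghrl, Ppy, Pyy, Isl2, Ffar4, Rbp4, Ghsr, Iapp, Abcc8, Slc2a2, G6pc2 and Slc30a8 were named besides, after their values were seen. For cell types other than neurons and gut endocrine cells, lists are given by their counts. The number of arrays limits the precision. Alternatives covered detection thresholds, normalization, the variance model, filtering, the probe rule and leaving out each replicate.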

Additional observations from a re-analysis of the deposited data

How the results depend on the processing

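The count of 7 detected factors held where 2 of 3 arrays sufficed and without each replicate in turn; it was 6 at a detection p under 0.01 (35.4% of all genes), after adjusting detection p-values by array (36.8%) and, with Nkx2-2 lost for its second probe, when all probes of a gene had to be detected (28.3%). The 7 member probes above the limit passed the limma test under all 9 alternatives run. The limit was set anew for each alternative normalization and kept from the main setting for the other alternatives. In either case the sign follows from the detection call. The highest adjusted p in this limma test was that of Neurod1 (0.00615), whose difference ranged from 0.22 to 0.62. Without the variance trend, the limma adjusted p of Insm1 was 2.25e-10 in place of 1.63e-31. The size of these p-values therefore depends on the variance model. The median level of the 11 member probes, 6.96, was 7.36 with the authors' processed values, 7.31 with an offset of 50 and 7.36 with no background correction. The offset is added to each intensity and uncorrected values keep their background, so these levels stand on different scales. Why the authors' values differed was not tested. Of 210 list genes 92 were detected, and 86 to 100 under the alternatives. No paired analysis was possible because there was 1 group. Levels near the background limit, as for Neurod1, are where the signal limits the call.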
